A study of Mus musculus with 6 samples.

Results

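The proteasome genes of mouse blood progenitors are described here in animals given ruxolitinib (RUX), an inhibitor of the kinases JAK1 and JAK2, and in untreated animals. The members were all gene symbols of the count table that begin with Psm, a letter from a to g and a number, which gave 50 of 24421 genes. RNA was sequenced from bone marrow cells that lack lineage antigens and carry CD117 (the KIT receptor), sorted from female CByB6F1 mice of 2 to 5 months. The 3 untreated pools (1 to 3) and the 3 RUX pools (4 to 6) each held cells of 2 to 3 mice of the same treatment, so p-values measure the spread between pooled libraries, not between single mice. The libraries held 27354768 to 38691826 counted read pairs in untreated and 46027491 to 48747137 in RUX pools, so every RUX library was the deeper. The labels name no engineered allele and no vehicle for the untreated mice. How much RUX was given, and for how long, is not stated in the sources used here. The sort keeps a mixture of stem cells and progenitors of several lineages, in which fewer cells of a type and less RNA per cell cannot be told apart. Kit, which encodes CD117, was present in all 6 pools, at 196 to 471 CPM (counts scaled to a common library size), and Cd34, a surface marker of progenitors, at 362 to 529 CPM.

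The proteasome is the protease complex that degrades proteins tagged with ubiquitin. Its barrel, the 20S core, is built of outer rings of alpha subunits (Psma genes), which gate the entry, and inner rings of beta subunits (Psmb genes), of which those encoded by Psmb5, Psmb6 and Psmb7 cut peptide bonds. The 19S cap, made of ATPases (Psmc genes) and non-ATPase subunits (Psmd genes), binds the tagged protein, removes ubiquitin and unfolds the chain. Interferons, above all interferon-gamma through JAK1 and JAK2, induce Psmb8, Psmb9 and Psmb10, whose products replace the 3 cutting subunits to form the immunoproteasome, and Psme1 and Psme2, which encode the PA28 activator. Cells of the blood system also make immunoproteasome without added interferon, and the peptides it releases feed antigen presentation on MHC class I. Among the 50 symbols, Psmc3ip is caught by its name alone, since it encodes a partner of the recombinase machinery of meiosis and no proteasome part.

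The interferon-induced core genes Psmb8 and Psmb9 lie in the MHC region of chromosome 17, on either side of Tap1, which encodes a subunit of the peptide transporter of antigen presentation. In mm10, Psmb9 spans 34182099 to 34187330 on the minus strand, Tap1 spans 34187556 to 34197225 and Psmb8 spans 34198195 to 34201454, both on the plus strand. Psmb9 and Tap1 thus start back to back, 225 bases apart. The stretch they share is printed below with the 120 bases before the starts of Psmb8 and of the constitutive genes Psmb5 and Psmb6, which encode the subunits that the products of Psmb8 and Psmb9 displace. Each is written 5′ to 3′ on the strand of the named Psmb gene, from RefSeq's promoter windows in GRCm38.p6. Capitals mark matches to any of 3 motifs on either strand: GAAANNGAA (the core of the interferon-stimulated response element), TTCNNNGAA (the site bound by STAT dimers) and TGACNNNGC (the core of the antioxidant response element, which the proteasome regulator NFE2L1 also binds).
Psmb8, chr17:34198075-34198194: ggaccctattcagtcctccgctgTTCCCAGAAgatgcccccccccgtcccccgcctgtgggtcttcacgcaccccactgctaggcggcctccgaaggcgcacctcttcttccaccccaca
Psmb9 and Tap1, chr17:34187331-34187555: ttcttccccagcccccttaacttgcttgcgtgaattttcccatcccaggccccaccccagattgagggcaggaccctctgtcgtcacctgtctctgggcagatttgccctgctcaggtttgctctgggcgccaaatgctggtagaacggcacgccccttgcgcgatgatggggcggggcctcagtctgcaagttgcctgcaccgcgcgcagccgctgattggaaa
Psmb5, chr14:54617996-54618115: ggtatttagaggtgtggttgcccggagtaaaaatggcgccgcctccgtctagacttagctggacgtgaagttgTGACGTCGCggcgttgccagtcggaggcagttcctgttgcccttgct
Psmb6, chr11:70525237-70525356: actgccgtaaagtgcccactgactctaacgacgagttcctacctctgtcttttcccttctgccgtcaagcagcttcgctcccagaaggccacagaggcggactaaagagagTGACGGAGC

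The Psmb8 window held the STAT-type letters, beginning 97 bases before its start, and the Psmb5 and Psmb6 windows held the antioxidant-type letters, beginning 47 and 9 bases before theirs. None of the 3 motifs was found in the 225 bases between Psmb9 and Tap1. Of the members, 42 had windows in the RefSeq table, 45 windows of 300 bases in all (250 before the start and 50 after it). The interferon-type motif was in 15.6% of the member windows and 8.56% of all 32851 windows. The STAT-type motif was in 6.67% and 8.30%, and the antioxidant-type motif in 13.3% and 12.4%. Besides Psmb8, windows of Psmd2 and Psmg1 held STAT-type letters. Besides Psmb5 and Psmb6, windows of Psmc6, Psmd9, Psmd12 and Psme4 held antioxidant-type letters. Interferon-type letters were in windows of 7 members, 6 of them constitutive or assembly genes (Psmb3, Psmb4, Psmc2, Psmd4, Psmd9 and Psmg4). Of the 5 interferon-induced genes only Psme1 had a match, beginning at base 11 when its start is base 1. Members without a window were not searched, so for them a missing match does not show a missing motif.

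Proteasome transcripts made up 1.22 to 1.48% of all counted read pairs in the 6 pools, and 49 of the 50 members passed the filter on low counts. The exception was Psmb11, the core gene of thymic epithelium, with 0 counts in 4 pools, 5 in untreated pool 3 and 4 in RUX pool 4. Levels between genes are compared per exon length, in TPM (counts per exon length, scaled to a common total), as means over the 6 pools. The alpha ring genes ran from 501 TPM (Psma5) to 932 TPM (Psma7), the noncatalytic beta genes from 525 (Psmb4) to 903 TPM (Psmb3) and the catalytic beta genes from 316 (Psmb5) to 617 TPM (Psmb6). The 19S subunit genes stood at 230 to 408 TPM for the 6 ATPases and 194 to 537 TPM for the 11 non-ATPases, ranges that overlap those of the core. Psme1 and Psme2 stood at 608 and 526 TPM, Psmb8 at 557 TPM, Psmb9 at 372 TPM and Psmb10 at 180 TPM, so the interferon-induced genes lay within or, for Psmb10, just below the range of the constitutive ones. The lowest tested members were Psme4, the gene of the nuclear activator PA200, at 16.3 TPM, and Psma8, the core gene of male germ cells, at 11.6 TPM.

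**Figure D1:**
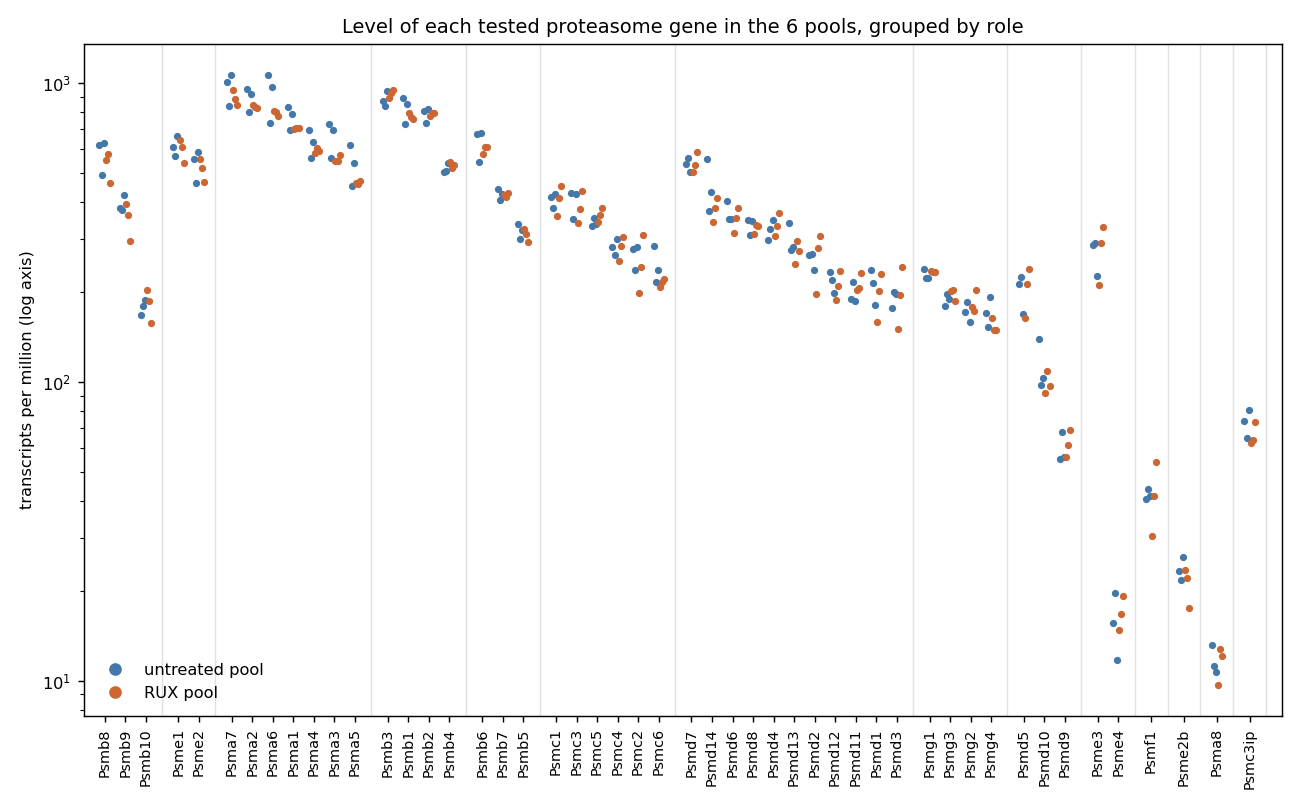
Level of the 49 tested proteasome genes in TPM (log axis), in each of 3 untreated (blue) and 3 RUX pools (orange), grouped by role from the immunoproteasome at the left to the non-subunit Psmc3ip at the right. The alpha and noncatalytic beta genes have means of 501 to 932 TPM, and blue and orange points overlap for every gene.

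None of the members differed past the threshold with RUX. In edgeR's quasi-likelihood test 0 of 49 members had a Benjamini-Hochberg adjusted p under 0.05, as did 0 of 13411 tested genes (0%). At an unadjusted p under 0.05 there were also 0 members, against 1.89% of all tested genes, and the smallest member value was 0.143. The CPM values of RUX and untreated pools overlapped for all 49 members. Over all tested genes, RUX pools lay entirely above untreated pools for 2.99% and entirely below for 3.25%. Log2 fold changes (RUX minus untreated) ran from −0.25 for Psmd14 to 0.13 for Psmd11. The 95% interval of the fold lay within 1.5-fold either way for 45 of 49 members, against 56.8% of all tested genes, whose median SE was larger (0.19 against 0.15 for members, on the log2 scale). In Psmd14, Psma3, Psma6 and Psme2b it reached lower, to folds of 0.658, 0.662, 0.663 and 0.652.

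**Figure D2:**
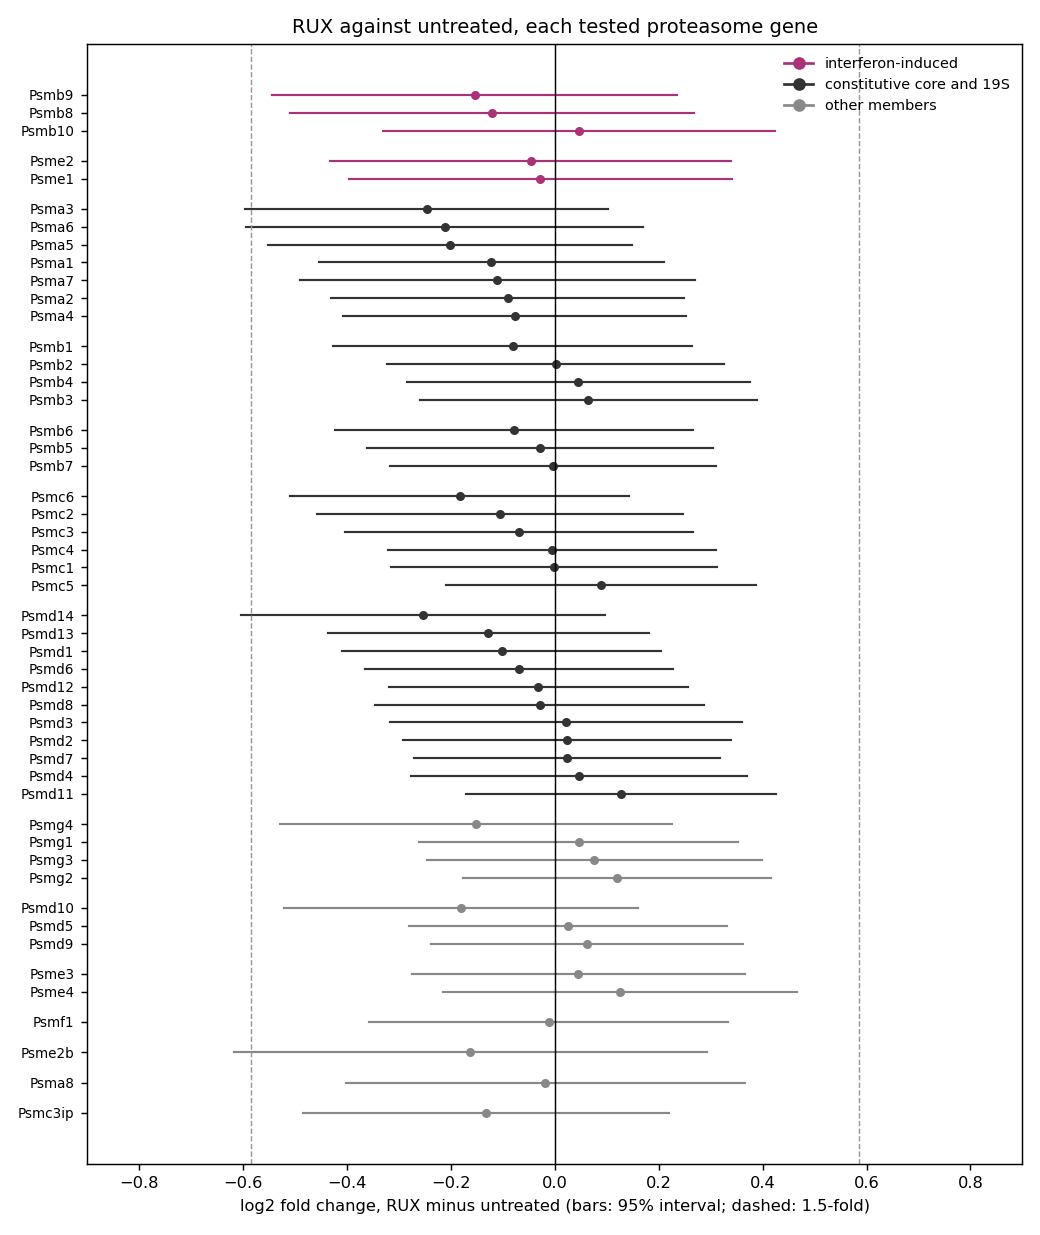
Log2 fold change (RUX minus untreated) of the 49 tested members with its 95% interval from edgeR, grouped by role, with dashed lines at 1.5-fold either way. Every interval crosses 0, and 45 of 49 lie within the dashed lines.

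None of the 5 interferon-induced genes passed the test, and for each the 95% interval of the fold lay within 0.686 to 1.34. Their unadjusted p ran from 0.410 (Psmb9) to 0.875 (Psme1), and each edgeR adjusted p was 1.00. Psmb8, whose product is the chymotrypsin-like subunit of the immunoproteasome, measured 406, 321 and 475 CPM in untreated pools 1 to 3 and 429, 381 and 297 CPM in RUX pools 4 to 6. Its highest value was in an untreated pool and its lowest in a RUX pool, and the other 4 lay between. The log2 fold change was −0.12 ± 0.18 (SE). Psmb9, the caspase-like position of the core, measured 166, 161.5 and 209 CPM without and 200.2, 157 and 125 CPM with RUX, or −0.15 ± 0.18 (SE) in log2 fold change. Psmb10, the trypsin-like position, on chromosome 8 (105935728 to 105938392), measured 114, 122 and 147 CPM without and 163, 128 and 104.5 CPM with RUX. RUX pools held both the highest and the lowest Psmb10 value, and the log2 fold change was 0.05 ± 0.17 (SE).

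Psme1 and Psme2 encode the alpha and beta subunits of PA28, the ring that opens the core barrel, and lie close together on chromosome 14 (55578494 to 55581527 and 55587440 to 55591101). Psme1 measured 321.5, 296.5 and 399 CPM in untreated and 398, 322.5 and 277 CPM in RUX pools, which gave −0.03 ± 0.17 (SE) as log2 fold change. Psme2 measured 292.5, 239.9 and 353 CPM and 344, 275 and 239 CPM, which gave −0.05 ± 0.18 (SE). For both genes the ranges of the groups nearly coincided. Psme2b, an intronless copy of Psme2 on chromosome 11, was counted at 9.72 to 16.9 CPM. Its transcript is 99.4% identical to that of Psme2 over 794 aligned bases, so its counts and part of those of Psme2 are uncertain. As a group, 4 of the 5 interferon-induced genes were on the negative side in log2 fold change and 1 on the positive, and their median was −0.05, against −0.0036 over all tested genes. The sign of this median depended on single pools: without untreated pool 3 it was 0.10 with 4 genes positive, and without RUX pool 6 it was 0.07 with 4 positive. Without RUX pool 4 it was −0.19 and without untreated pool 1 it was −0.06, with 0 positive in each case.

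**Figure D3:**
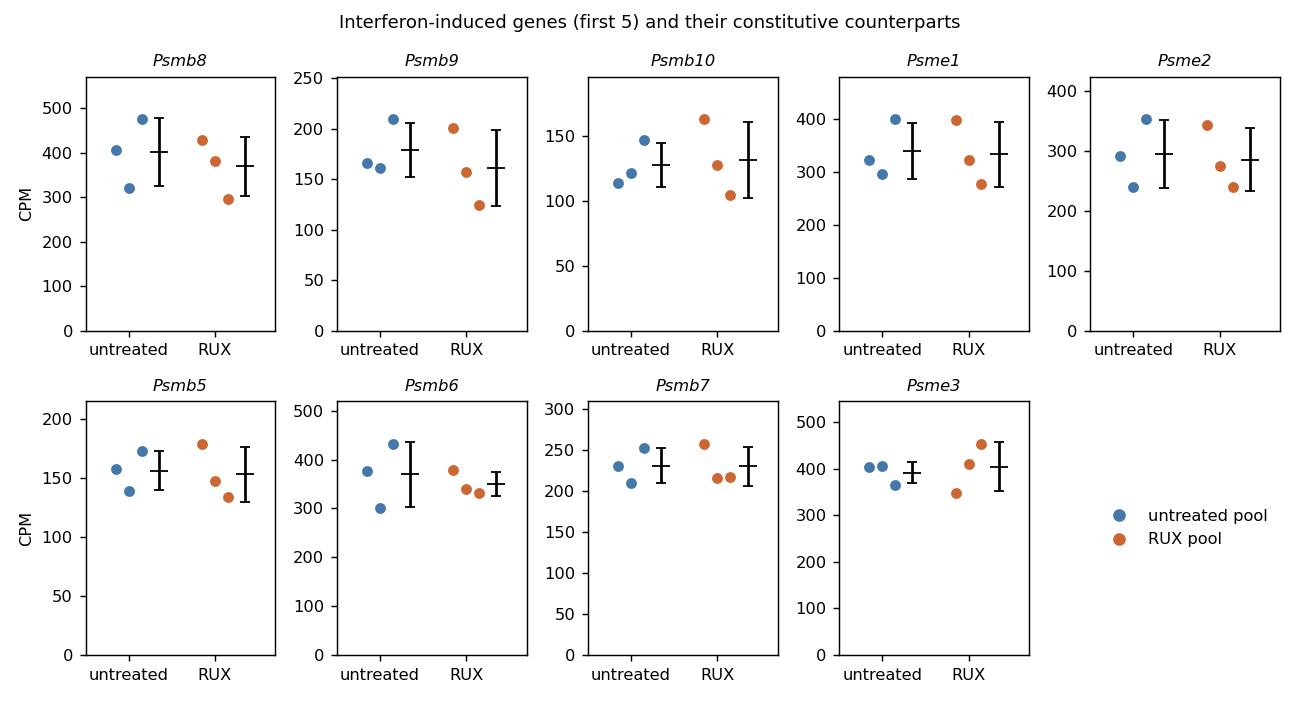
CPM of the 5 interferon-induced genes and of the constitutive Psmb5, Psmb6, Psmb7 and Psme3 in each untreated (blue) and RUX pool (orange), with the group mean and SD (n = 3) in black, axes from 0. The groups overlap in every panel, with Psmb8 at 321 to 475 CPM in untreated and 297 to 429 CPM in RUX pools.

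Transcripts of the exchangeable core subunits were compared within each library. The measure was the ratio of an immunoproteasome gene to the constitutive gene whose product is displaced, per exon length. These are ratios of RNA, and the subunits present in assembled cores were not measured. Psmb8 exceeded Psmb5 in every pool, at ratios of 1.84, 1.64 and 1.96 in untreated and 1.7, 1.84 and 1.58 in RUX pools. Psmb8 therefore held 61.2 to 66.2% of the transcripts of its pair. Exons of Psmb5 overlap those of Mir686 over 109 of 871 bases (12.5%), so Psmb5 may be undercounted and this share too high. The size of this effect was not tested. Psmb9 was the smaller part of its pair in every pool, at 0.566, 0.692 and 0.622 of Psmb6 without and 0.679, 0.594 and 0.484 with RUX. Psmb10 was likewise the smaller part, at 0.377, 0.442 and 0.442 of Psmb7 without and 0.481, 0.450 and 0.367 with RUX. No ratio separated the groups. The difference of mean log2 ratios was −0.08 for Psmb8 to Psmb5 (two-sided exact permutation p = 0.5), −0.11 for Psmb9 to Psmb6 (exact permutation p = 0.6) and 0.04 for Psmb10 to Psmb7 (exact permutation p = 0.8).

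The PA28 genes were set against Psme3 in the same way, whose product forms the nuclear PA28-gamma activator and which interferon does not induce. Psme1 was 1.96 to 2.93 times Psme3 in untreated and 1.64 to 3.06 times in RUX pools, a difference of −0.07 in mean log2 ratio (exact permutation p = 0.9). Psme2 was 1.58 to 2.60 and 1.42 to 2.65 times Psme3, a difference of −0.08 (exact permutation p = 0.8). Because of the copy Psme2b, part of the Psme2 counts is uncertain, and so is this ratio. After Benjamini-Hochberg adjustment over the 5 ratios each exact permutation p was 0.9, and the smallest p that 6 pools in groups of 3 allow is 0.1. In both ratios the extremes were RUX pools 4 and 6.

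**Figure D4:**
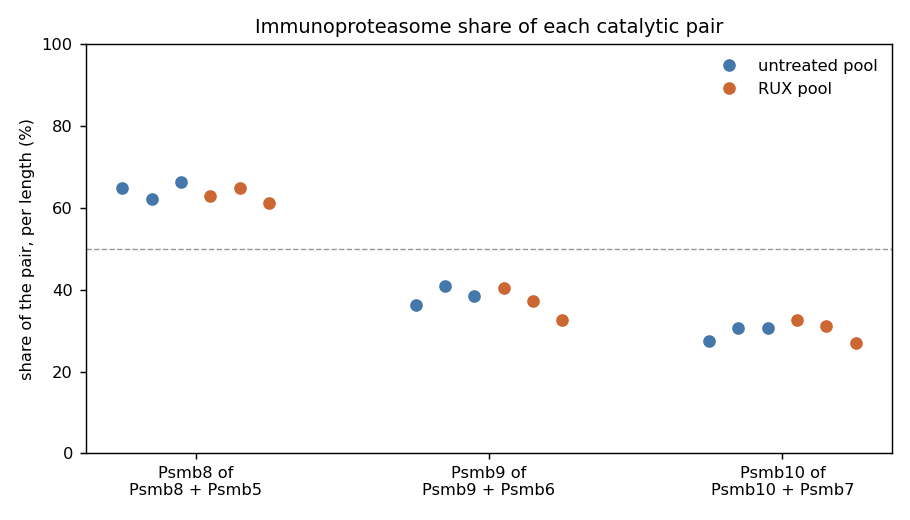
Share of the immunoproteasome gene in the transcripts of each catalytic pair, per exon length and in percent, with a dashed line at 50%. Points are untreated (blue) and RUX pools (orange), and protein was not measured. Psmb8 holds 61.2 to 66.2% of its pair in all pools, Psmb9 32.6 to 40.9% and Psmb10 26.9 to 32.5%. Psmb5 may be undercounted where its exons overlap those of Mir686.

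None of the constitutive counterparts passed the test either, with unadjusted p of 0.631 (Psmb6) to 0.979 (Psmb7) and edgeR adjusted p of 1.00. Psmb5 measured 158, 139 and 173 CPM in untreated and 179, 147 and 134 CPM in RUX pools (log2 fold change −0.03 ± 0.15, SE). Psmb6 measured 376.5, 300.3 and 433 CPM and 379, 340.5 and 331 CPM (−0.08 ± 0.16, SE), and Psmb7 231, 210 and 253 CPM and 258, 217 and 217 CPM (−0.004 ± 0.15, SE). In all 3 genes the ranges of the groups overlapped. Of the other 11 constitutive core genes, the 4 noncatalytic beta genes had log2 fold changes of −0.08 (Psmb1) to 0.06 (Psmb3). The 7 alpha ring genes all had negative values, from −0.25 (Psma3) to −0.08 (Psma4), with a median of −0.12. This set too moved with single pools: the median was −0.04 without untreated pool 3, where Psma2 and Psma7 were positive, −0.07 without RUX pool 6, −0.23 without untreated pool 2 and −0.24 without RUX pool 4.

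Psma3, an alpha ring gene, came after Psmd14 of the cap, described below, in the order of unadjusted p. It measured 558, 425 and 607 CPM in untreated and 492, 420.3 and 428 CPM in RUX pools, and its log2 fold change was −0.25 ± 0.16 (SE; unadjusted p = 0.152, edgeR adjusted p = 1.00). Untreated pools 1 and 3 were above all RUX pools, while untreated pool 2 lay among them. Psma5, also of the alpha ring, measured 405.5, 293 and 403 CPM and 356, 301 and 300 CPM. Untreated pools 1 and 3 were again highest, but untreated pool 2 was the lowest of all 6, and the log2 fold change was −0.20 ± 0.16 (SE; unadjusted p = 0.235, edgeR adjusted p = 1.00).

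The 19S genes were split in direction. Of the 6 ATPase genes 1 had a positive log2 fold change, with a range of −0.18 (Psmc6) to 0.09 (Psmc5), and of the 11 non-ATPase genes 5 did. Psmd14, whose product is the deubiquitinase that strips ubiquitin chains at the entry of the core, had the smallest unadjusted p of all members. It measured 459, 306 and 408 CPM in untreated and 334.5, 317 and 332.5 CPM in RUX pools. The RUX values were close together, between untreated pool 2 and the other untreated pools, and the log2 fold change was −0.25 ± 0.16 (SE; unadjusted p = 0.143, edgeR adjusted p = 1.00). Psmd11, a scaffold subunit of the cap, had the largest positive value, 0.13 ± 0.14 (SE; unadjusted p = 0.373, edgeR adjusted p = 1.00), at 177, 199.6 and 199.5 CPM and 224.5, 193 and 211.5 CPM. Over all 31 constitutive core and cap genes, 22 were on the negative side in log2 fold change and 9 on the positive, and the median was −0.07. Single pools moved this split: without untreated pool 3 the median was 0.04 with 20 genes positive, and without untreated pool 1 it was −0.04 with 4 positive.

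Assembly factors and the remaining regulators showed no common direction. The 4 core assembly chaperones ran from −0.15 (Psmg4) to 0.12 (Psmg2) in log2 fold change. Psmg2 measured 97.2, 104 and 103 CPM in untreated and 119.5, 99.0 and 113 CPM in RUX pools (0.12 ± 0.14, SE; unadjusted p = 0.398), with RUX pools 4 and 6 above all untreated pools and RUX pool 5 among them. The cap chaperones Psmd5, Psmd9 and Psmd10 had values of 0.03, 0.06 and −0.18. Psme3 measured 404, 406 and 364.5 CPM and 348, 411 and 453 CPM (0.05 ± 0.15, SE; unadjusted p = 0.765). Psme4 measured 54.0, 67.2 and 46.6 CPM and 60.35, 58.2 and 64.6 CPM (0.13 ± 0.16, SE; unadjusted p = 0.443), with untreated pools at both ends. Psmf1, the gene of the proteasome inhibitor PI31, had a log2 fold change of −0.01 and Psma8 one of −0.02.

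The interferon-induced genes were high and low in the same pools. In all 5, untreated pool 3 and RUX pool 4 were the 2 highest pools and RUX pool 6 the lowest, and the highest pool exceeded the lowest 1.44-fold (Psme1) to 1.68-fold (Psmb9). Their mean deviation from each gene's 6-pool mean of log2(CPM + 1) was 0.28 in untreated pool 3, 0.26 in RUX pool 4 and −0.32 in RUX pool 6, and −0.16 to −0.02 in the other 3. The 14 constitutive core genes had untreated pool 3 and RUX pool 4 as their highest pair in 9 cases and untreated pool 2 as their lowest in 10, with mean deviations of 0.23, 0.13 and −0.19 in those pools. The 17 cap genes varied less, between −0.10 and 0.13. The median ratio of highest to lowest pool was 1.56 for interferon-induced, 1.34 for constitutive core and 1.29 for cap genes, and 1.53 over all tested genes.

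Other measures also differed between the pools, only some of them with the same pools high or low. Non-member genes with up to 1000 bases of exon had median deviations of 0.22 in untreated pool 3 and 0.27 in RUX pool 4, against −0.18 to −0.07 in the other 4 pools, and genes over 4000 bases had −0.17 and −0.09 in those pools, against 0.02 to 0.12. All 5 interferon-induced genes and 13 of 14 constitutive core genes have 1500 bases or fewer, against 5 of 17 cap genes. Markers of mature or committed cells also differed by pool. The 10 monocyte and dendritic markers summed to 803 to 1297 CPM in untreated pools, highest in pool 3, and to 581 to 867 CPM in RUX pools, lowest in pool 6; 8 of the 10 had negative log2 fold changes and none was at 0 in all pools. The 10 B lymphoid markers summed to 841 to 932 CPM and 638 to 862 CPM, with 9 of 10 negative and RUX pool 6 again lowest. Dntt alone gave 392 to 587 CPM of these sums. The T and NK markers, highest in untreated pool 3 and RUX pool 4, summed to 227 to 394 CPM and 240.5 to 435 CPM. Of 8 tested genes 5 were negative, Nkg7 alone gave 187 to 403 CPM, and Cd8a was at 0 in 4 pools. The 9 neutrophil markers found summed to 165 to 2456 CPM and 360 to 1539 CPM, all 9 negative with a median of −0.87, and the lowest sums were in untreated pool 1 and RUX pool 6. Eosinophil markers, highest in untreated pool 3 and RUX pool 4, summed to 40.1 to 237 CPM and 49.6 to 228 CPM (5 of 7 tested positive), with Prg2 alone at 35.7 to 214 CPM. Megakaryocyte sums did not overlap, at 165 to 180 CPM in untreated and 196 to 215 CPM in RUX pools, with 8 of 8 genes positive and a median of 0.27. Erythroid sums were 5876 to 6885 CPM and 5522 to 8104 CPM (7 of 10 positive), mostly from Car1 (2299 to 3030 CPM) and Car2 (2313 to 3429 CPM). Macrophage sums were 11.9 to 31.0 CPM and 17.8 to 22.1 CPM (1 of 4 tested positive). Progenitor sums were 1674 to 2391 CPM and 1941 to 2204 CPM (5 of 8 positive), lowest in untreated pool 3. No marker was called by edgeR. The part of transcript length, depth and cell makeup in the pool differences was not tested. Without untreated pool 3 and RUX pool 4, 0 of 49 members were called in edgeR, the interferon-induced median was −0.05 with 0 genes positive, and 14 constitutive genes were positive.

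**Figure D5:**
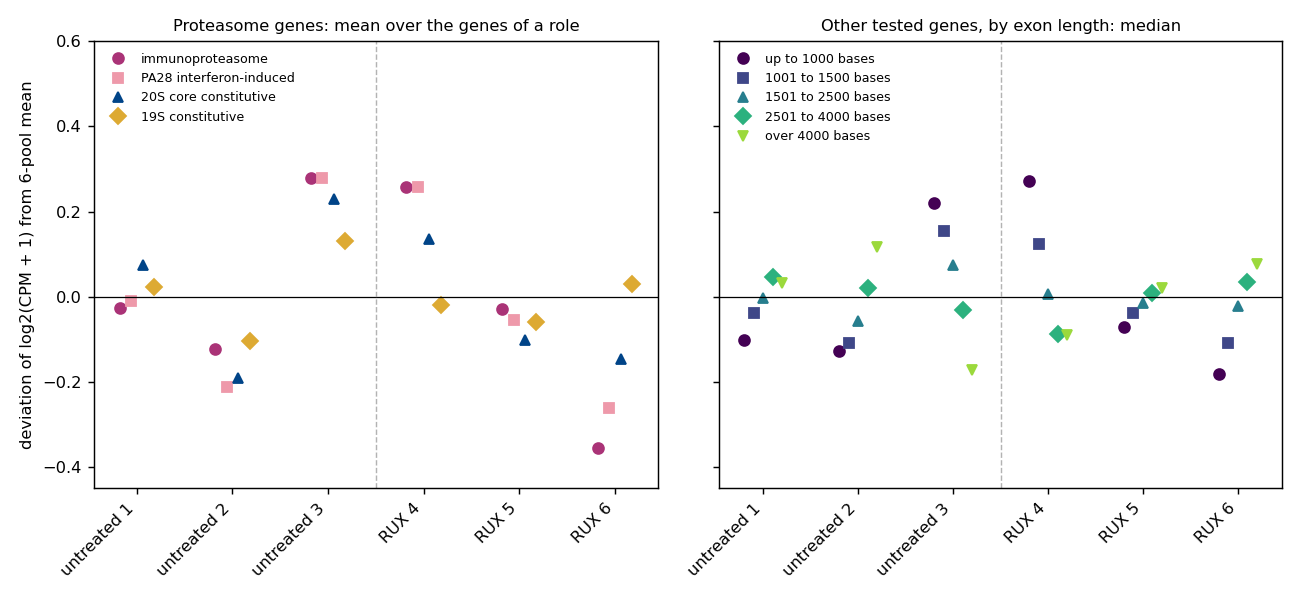
Left, mean deviation of log2(CPM + 1) from the 6-pool mean over the genes of a role, and right, the median deviation of non-member genes (mean of at least 5 CPM) by exon length, in each pool, with untreated pools left of the dashed line. Immunoproteasome, PA28 and core genes are high in untreated pool 3 and RUX pool 4, where genes of up to 1000 bases are also high.

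No gene that works with the proteasome passed the test either. Of 25 measured partners, ubiquitin shuttles and regulators, 14 were on the positive and 11 on the negative side in log2 fold change, 0 were called by edgeR and the median was 0.01. Nfe2l1, the transcription factor that raises proteasome genes when the protease is inhibited, measured 74.4, 88.9 and 65.8 CPM in untreated and 60.8, 75.0 and 88.3 CPM in RUX pools (log2 fold change −0.03 ± 0.17, SE). The smallest unadjusted p on the lower side were those of Zfand5, a proteasome activator (−0.21), and Ubb, a ubiquitin gene (−0.19). On the higher side Uchl5, a deubiquitinase of the cap, stood at 0.11.

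Regulators and neighbours of the interferon-induced genes also stayed short of the threshold. Of 8 such genes 6 were on the positive and 2 on the negative side in log2 fold change, 0 were called by edgeR and the median was 0.03. Irf1, the interferon-induced transcription factor that drives Psmb9, measured 43.4, 35.0 and 43.5 CPM without and 41.4, 44.1 and 35.7 CPM with RUX (−0.01 ± 0.16, SE). Tap1 measured 110, 141 and 120 CPM and 121, 132 and 121 CPM (0.01 ± 0.14, SE). Untreated pool 3 and RUX pool 4, the 2 highest pools for Psmb9, were not the highest for Tap1, which shares its 225-base upstream stretch. Psmb9 and Tap1 also differ in exon length, at 806 and 2950 bases. In those 2 pools, non-member genes of up to 1000 bases had median deviations of 0.22 and 0.27. Non-member genes in the length class of Tap1 had −0.03 and −0.09. The part of transcript length in this contrast was not tested. Nlrc5, the activator of MHC class I genes, measured 13.0, 16.5 and 12.6 CPM and 10.8, 10.7 and 12.75 CPM (log2 fold change −0.30 ± 0.19, SE; unadjusted p = 0.134) with overlap of the groups. On the higher side Tapbp, which encodes the MHC class I chaperone tapasin, stood at 0.15 and the transporter gene Tap2 at 0.12.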

How the data were processed

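Libraries were prepared with the SMART-Seq mRNA LP kit, per the labels' protocols, and reads were aligned by STAR to mm10 (version of STAR not stated), as the submitters' processing notes have it. The authors deposited unnormalized counts of exon read pairs for each gene, from featureCounts 2.0.3 run by a command that sets no option for strand, several mapping places or shared exons, per the file headers. Without strand, reads of overlapping genes cannot be told apart. Exons of 5 members overlap those of another gene (Psma4, Psmb5, Psmc3ip, Psme1 and Psme2b), by 0.409 to 24.6% of the member's length. Totals were 27354768 to 48747137 pairs per pool, and a floor of 3 counts was 0.0615 to 0.110 CPM, which covers counting error only.

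From the deposited counts, edgeR 4.0.16 kept 13411 genes by filterByExpr, scaled them by TMM and tested treatment as the only term, two-sided, with Benjamini-Hochberg adjustment over these genes at 0.05. CPM values divide by the TMM-scaled total over genes that passed the filter. TPM was computed here from counts and the deposited summed exon length. Each SE was derived from the F statistic and gave the 95% interval. Ratios used a prior of 0.5 counts and a two-sided exact permutation test over pools.

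The members, roles and lists were chosen with earlier results of these data known. Full values are given for the 5 interferon-induced genes, their 4 counterparts and, as 0 members were called, 3 per direction with the lowest unadjusted p. For the partner and neighbour lists they are given for Nfe2l1, Irf1, Nlrc5 and Tap1 and the 2 with the smallest unadjusted p per direction, except that 2 listed genes are not reported here; of 26 partners, 1 was not found by symbol. Motifs were searched as exact letters. Marker lists covered progenitors and 8 other cell types. Alternatives were DESeq2 1.42.0 on the unfiltered table, limma-voom 3.58.1, 2 other scalings, 2 other filters, robust fitting, other priors and pools left out.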

Additional observations from a re-analysis of the deposited data

How the results depend on the processing

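Across 14 alternatives 0 of 49 members were called, with a smallest adjusted p of 0.972 by edgeR (without untreated pool 2, where 3 members had an unadjusted p under 0.05: Psmd14 at 0.0240, Psma3 at 0.0341 and Psma6 at 0.0393). The count of all called genes was 0 except with no low-count filter (14). The median log2 fold change was −0.11 to 0.04 for constitutive and −0.19 to 0.10 for interferon-induced members when 1 pool was left out, so both changed sign. Each shift was smaller than the SD between pools of a group. Leaving out 1 of 3 pools could hardly shift a median by more, so that limit does not measure stability. Of 49 members, 19 kept their direction throughout. The other 30 changed sign in at least 1 alternative, among them members as far from 0 as Psmg4 (−0.15). Psmb7 was at 0.0055, 0.0054, 0.0043 and 0.0040 with DESeq2 size factors, upper-quartile scaling, no filter and the DESeq2 test. With 1 pool left out the ranges were −0.25 to 0.020 for Psmb8, −0.34 to −0.00092 for Psmb9 (without RUX pool 4 and without RUX pool 6 in turn), −0.13 to 0.19 for Psmb10, −0.17 to 0.11 for Psme1, −0.19 to 0.10 for Psme2, −0.15 to 0.061 for Psmb5, −0.20 to 0.050 for Psmb6, −0.085 to 0.067 for Psmb7 and −0.046 to 0.15 for Psme3. For the members named by unadjusted p they were −0.39 to −0.12 for Psmd14, −0.37 to −0.14 for Psma3, −0.33 to −0.13 for Psma5, 0.07 to 0.18 for Psmd11, 0.07 to 0.19 for Psmg2 and 0.0096 to 0.29 for Psme4. Differences in log2 ratio were then −0.22 to 0.025 for Psmb9 to Psmb6, −0.045 to 0.15 for Psmb10 to Psmb7, −0.31 to 0.14 for Psme1 to Psme3 and −0.33 to 0.12 for Psme2 to Psme3. Without untreated pool 3 and RUX pool 4 together, Psmb10 was at −0.019 and its ratio to Psmb7 at −0.0073. None of these values was called, and the cause of the changes was not tested. No paired analysis was possible because the pool numbers are not shared between the groups. With 3 pools a group, the 95% intervals of the members leave room for folds of 0.652 to 1.38.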
